A study of Mus musculus with 4 samples.

Results

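The Notch pathway genes described here were Notch1, Notch2, Notch3, Dll1, Dll3, Jag1, Rbpj, Hes1, Hes5 and Hey1. They were chosen by name, as receptors, ligands, the DNA-binding factor and target genes of the pathway. Every array probe whose RefSeq accession belonged to 1 of these 10 genes was read on all 4 arrays. They were 10 of 20658 genes named on the array and had 14 of its 55681 probes, with 2 probes for each of 4 genes (Notch1, Notch2, Dll3 and Rbpj) and 1 probe for each of the other 6. The study asked whether exposure of the pregnant mouse to titanium dioxide nanoparticles (TiO2-NP) altered mRNA levels in the newborn brain. Dams were C57BL/6J mice (C57BL/6 in the strain label), for which the labels name no transgene, and received 25 μL of vehicle (Sham) or of TiO2-NP suspension (TiO2-H, 100 μg per mouse) through the trachea. Whole brains of male and female pups were taken on postnatal day 1. RNA of 2 offspring per dam, from 5 Sham dams or 6 TiO2-H dams, was pooled into 1 RNA sample per sex and exposure, and each of the 4 pools was hybridized to 1 one-color array. The protocol placed the exposure on gestational day 10.5, whereas the sample titles and descriptions gave day 14. The labels gave the suspension as 4 μg/L and the methods as 4 μg/μL, which is the value that yields the stated dose. Because each group was 1 array of pooled RNA, the spread between animals was not measured, and both Sham arrays lay in one row of the slide and both TiO2-H arrays in the other. Exposure, litter and slide row therefore cannot be told apart.

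Notch signaling passes between touching cells. A Delta or Jagged ligand on one cell binds a Notch receptor on its neighbor, proteases then release the intracellular domain of the receptor, and this domain joins the DNA-binding protein RBPJ in the nucleus to switch on Hes and Hey genes. In the embryonic and newborn brain the products of Hes1 and Hes5 repress proneural genes and keep radial glia in a progenitor state, and the same pathway also acts in blood vessels.

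RefSeq promoter windows of assembly GRCm38.p6, from 250 bases before to 50 bases after an annotated start, were matched to 8 of the 10 genes and gave 10 windows. Hes1 and Hey1 had no entry. The windows of Hes5, a target gene of the pathway, and of the 3 receptors are printed because Hes5 is a textbook target of RBPJ and the receptors lead the results. Capitals mark TGGGAA, the core letters of the RBPJ motif, and CACNAG (N box) and CACGCG, letters bound by Hes and Hey repressors, each searched on both strands. The windows lie at chr4:154960673-154960972 on the plus strand for Hes5, at chr2:26503773-26504072 on the minus strand for Notch1, at chr3:98013288-98013587 on the plus strand for Notch2 and at chr17:32166841-32167140 on the minus strand for Notch3.
Hes5: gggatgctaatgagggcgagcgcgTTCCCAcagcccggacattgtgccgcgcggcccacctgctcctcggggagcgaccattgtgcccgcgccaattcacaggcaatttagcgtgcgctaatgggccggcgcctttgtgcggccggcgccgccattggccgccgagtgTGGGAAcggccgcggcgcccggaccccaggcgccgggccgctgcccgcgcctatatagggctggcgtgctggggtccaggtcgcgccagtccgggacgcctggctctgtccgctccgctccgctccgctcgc
Notch1: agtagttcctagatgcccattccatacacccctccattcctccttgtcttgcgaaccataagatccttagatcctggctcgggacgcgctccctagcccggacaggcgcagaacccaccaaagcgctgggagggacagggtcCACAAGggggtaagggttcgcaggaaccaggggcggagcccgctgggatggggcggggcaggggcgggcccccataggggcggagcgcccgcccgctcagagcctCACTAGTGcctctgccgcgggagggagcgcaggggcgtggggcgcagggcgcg
Notch2: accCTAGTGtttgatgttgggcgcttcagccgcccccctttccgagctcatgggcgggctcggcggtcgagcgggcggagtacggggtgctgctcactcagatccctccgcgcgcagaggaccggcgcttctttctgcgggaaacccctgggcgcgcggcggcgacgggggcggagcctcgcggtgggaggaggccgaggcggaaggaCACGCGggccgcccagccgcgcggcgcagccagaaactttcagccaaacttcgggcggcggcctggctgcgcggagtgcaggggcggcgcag
Notch3: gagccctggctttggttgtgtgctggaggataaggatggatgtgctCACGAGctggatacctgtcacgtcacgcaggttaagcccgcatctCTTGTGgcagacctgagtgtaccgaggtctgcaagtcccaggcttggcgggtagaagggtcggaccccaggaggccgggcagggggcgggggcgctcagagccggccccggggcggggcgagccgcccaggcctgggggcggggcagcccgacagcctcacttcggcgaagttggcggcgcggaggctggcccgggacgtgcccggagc
The Hes5 window held TGGGAA at 2 places, which began 82 bases and 226 bases upstream of the start. The Rbpj windows, at chr5:53590096-53590395 and chr5:53590236-53590535 and overlapping each other, held the same core, and no window of another member did. Over all 32851 promoter windows, 25.6% held TGGGAA. The N box letters occurred 3 times in the Notch1 window, where 2 matches on opposite strands overlapped at the start site, 2 times in the Notch3 window and 1 time each in the Notch2 window and 1 of the 2 Dll1 windows, against 42.5% of all windows with at least 1 match. CACGCG occurred 2 times in the Jag1 window, 1 time in the Notch2 window and 1 time in the same Dll1 window, and was present in 9.27% of all windows. These matches describe letters in a window and not bound sites.

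The signal of a probe is the Feature Extraction processed signal, a background-subtracted intensity with no scaling between arrays. For comparisons it was put on the log2 scale and the log2 of the 75th percentile of its array (795 to 871) was subtracted. Between 56.2% and 61.2% of spots were well above background, and no spot was saturated. All 6 radial glia markers and all 6 neuron markers were well above background on all 4 arrays. The sex labels of the TiO2-H arrays went against the sex-linked mRNAs. Xist, transcribed from the silenced X chromosome of females, had signals of 17.9 (Sham male), 276 (Sham female), 347 (labelled TiO2-H male) and 5.36 (labelled TiO2-H female). Ddx3y, a gene of the Y chromosome, had signals of 1418, 142, 7.18 and 1783 in the same order, so that the Sham female array also carried some Y-linked signal. Each comparison within a sex is therefore given by label and also with the TiO2-H arrays crossed. Below, "in males", "in females" and "in a sex" refer to the labels only.

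Among the receptors, Notch1 was higher on both TiO2-H arrays, and Notch2 and Notch3 were slightly higher. Notch1 encodes the receptor most closely tied to maintenance of neural progenitors and is also used by endothelial cells. Its brighter probe had signals of 99.9 (Sham male), 114 (Sham female), 151 (labelled TiO2-H male) and 189 (labelled TiO2-H female). The order was the same after scaling, and the groups did not overlap. The log2 ratio of TiO2-H over Sham was 0.50 ± 0.24 between the arrays labelled male, or 1.42-fold, and 0.60 ± 0.23 between the arrays labelled female, or 1.51-fold, where the error is the one that the scanner software gives for the spots and leaves out the spread between animals. With the TiO2-H arrays crossed, the log2 ratio was 0.82 against Sham male (1.76-fold) and 0.28 against Sham female (1.21-fold). The Sham arrays themselves differed by 0.22 and the TiO2-H arrays by 0.32 on the log2 scale, so that the levels were spread within each exposure as well. Of the 29409 probes well above background on all 4 arrays, 132 (0.449%) had ratios in both labelled sexes at or above the smaller ratio of Notch1. This share describes a rank by label and is not a test. It counts both ratios together and is not comparable with the shares of single comparisons. In the single comparison by label, 5.45% of the probes compared were at or above the Notch1 ratio in males. In females by label the share was 2.57%. With the TiO2-H arrays crossed, 1.61% of the probes compared were at or above the Notch1 ratio against Sham male. Against Sham female the share was 12.5%. The dimmer Notch1 probe failed the background test on every array, with signals between 13.9 and 23.9, and gave no comparison.

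Notch2, which encodes a receptor of radial glia and many other cells, had signals of 946, 923, 1068 and 1111 at its brighter probe, in the order Sham male, Sham female, labelled TiO2-H male and labelled TiO2-H female. Both TiO2-H values lay above both Sham values, by log2 ratios of 0.077 ± 0.20 in males and 0.14 ± 0.20 in females after scaling, and of 0.13 against Sham male and 0.086 against Sham female with the TiO2-H arrays crossed. These differences were smaller than the scanner error. The dimmer Notch2 probe was well above background only on the array labelled TiO2-H male, with a signal of 47.2 against 12.8, 14.6 and 16.5 on the Sham male, Sham female and labelled TiO2-H female arrays. Set against the lowest signal that passed as measured in Sham male, this was at least 1.45-fold higher, or at least 1.36-fold when crossed against Sham female, and the brighter probe showed no such difference on that array. Notch3, whose product is best known from mural cells of vessels and from progenitors, had signals of 1536, 1479, 1793 and 1785. Its log2 ratios were 0.12 ± 0.20 in males and 0.14 ± 0.20 in females, and 0.11 and 0.15 against Sham male and Sham female when crossed, again with both TiO2-H arrays above both Sham arrays and again within the scanner error.

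**Figure D1:**
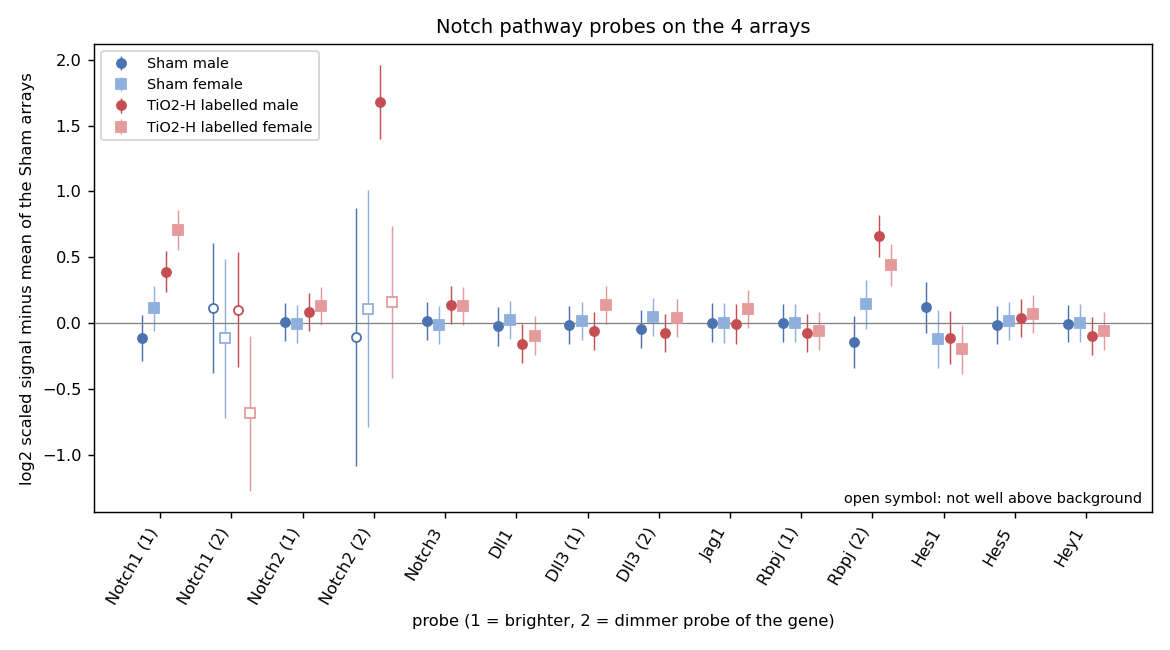
Log2 scaled signal of each of the 14 probes (horizontal axis) on the 4 arrays, drawn as the difference from the mean of the Sham arrays (vertical axis). Bars are the scanner error and open symbols mark values not well above background. Notch1 (1) and Rbpj (2) stand above 0 on both TiO2-H arrays, and most other probes lie within their bars of 0.

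The ligands were close to the Sham levels. Dll1, a Delta ligand carried by committing neuronal precursors, was the only member with 10 spots per array. Its geometric mean signals were 356 (Sham male), 361 (Sham female), 347 (labelled TiO2-H male) and 364 (labelled TiO2-H female). After scaling, the mean log2 values over the 10 spots were -1.19 ± 0.071, -1.14 ± 0.068, -1.32 ± 0.13 and -1.26 ± 0.079 (SD of spots) in that order. Both TiO2-H arrays therefore lay below both Sham arrays, with log2 ratios of -0.13 ± 0.21 in males and -0.12 ± 0.21 in females, or -0.071 against Sham male and -0.18 against Sham female when crossed. The single spots of the arrays overlapped, and the array labelled TiO2-H male held 1 spot at 432, above every other spot of that probe. Without scaling between arrays the difference between the exposures was -0.012 in log2 units.

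**Figure D2:**
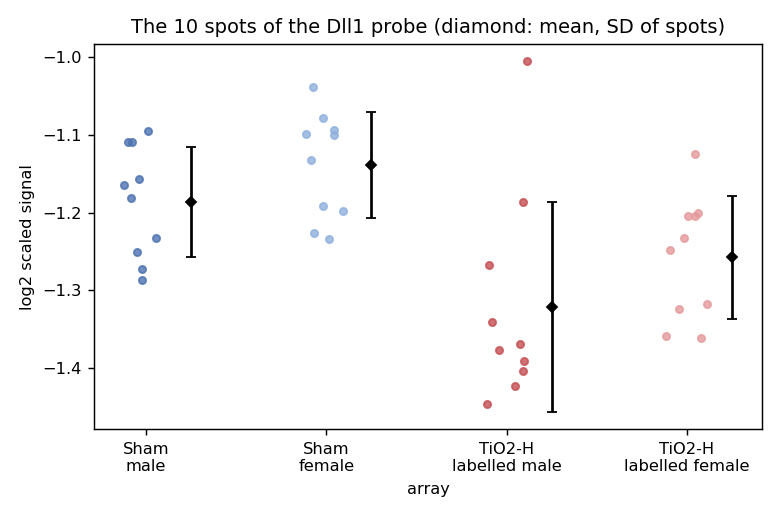
The 10 spots of the Dll1 probe on each array (horizontal axis) as log2 scaled signal (vertical axis), with the mean and SD of the spots as a diamond and bar. The spots are technical repeats of 1 RNA pool, and those of the TiO2-H arrays lie lower on average but overlap with those of the Sham arrays.

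Dll3, a divergent Delta protein that acts within the cell rather than as an activating ligand, was read by 2 probes. The brighter probe had signals of 1527, 1525, 1580 and 1824 on the Sham male, Sham female, labelled TiO2-H male and labelled TiO2-H female arrays. The dimmer probe had signals of 827, 863, 867 and 939. On both probes the array labelled TiO2-H male was the lowest after scaling, and the groups overlapped. The log2 ratios were -0.048 ± 0.20 in males and 0.13 ± 0.20 in females at the brighter probe, and -0.030 ± 0.20 and -0.0096 ± 0.20 at the dimmer probe. When crossed, they were 0.15 against Sham male and -0.074 against Sham female at the brighter probe, and 0.080 and -0.12 at the dimmer one. The sign thus turned with the crossing in each sex at the brighter probe, but only against Sham male at the dimmer one. Jag1, a Jagged ligand of progenitors and of endothelium, had signals of 222, 217, 236 and 256. Its scaled values also overlapped between the exposures, with log2 ratios of -0.0093 ± 0.21 in males and 0.11 ± 0.21 in females, and 0.10 and -0.0028 against Sham male and Sham female when crossed.

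Rbpj, which encodes the DNA-binding factor shared by all Notch receptors, gave different readings at its 2 probes. The brighter probe had signals of 2044, 2005, 2073 and 2109 (Sham male, Sham female, labelled TiO2-H male, labelled TiO2-H female) and log2 ratios of -0.078 ± 0.20 in males and -0.058 ± 0.20 in females, or -0.058 and -0.077 when crossed. All 4 scaled values of this probe lay within 0.078 log2 units. The dimmer probe read 77.4, 92.5, 145 and 125 in the same order. Its log2 ratios were 0.80 ± 0.25 in males (1.75-fold) and 0.30 ± 0.24 in females (1.23-fold), and 0.58 and 0.52 with the TiO2-H arrays crossed. The dimmer probe therefore lay above Sham on both TiO2-H arrays while the brighter probe of the same gene lay slightly below. Both probes carried the same RefSeq accession, and which transcript region each reads was not analysed here.

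The target genes showed no difference beyond the scanner error in either labelled sex. Hes5, the target typical of radial glia, had signals of 17672, 17704, 19653 and 20099 on the Sham male, Sham female, labelled TiO2-H male and labelled TiO2-H female arrays. Its log2 ratios were 0.055 ± 0.20 and 0.052 ± 0.20 in males and females, or 0.082 and 0.025 against Sham male and Sham female when crossed, and the 4 scaled values spanned 0.082 log2 units. Both TiO2-H values lay above both Sham values, by less than the error of a spot. Hes1, the other main repressor of neurogenesis, had signals of 88.3, 73.5, 80.6 and 76.1. The Sham male array was the highest and the other 3 were close together, with log2 ratios of -0.23 ± 0.28 in males and -0.081 ± 0.29 in females. With the arrays crossed, the Hes1 ratio was -0.32 against Sham male and 0.0083 against Sham female, so that its sign against Sham female turned with the crossing. Hey1, a target in progenitors and vessels, had signals of 3969, 3915, 3970 and 4107. After scaling both TiO2-H arrays were below both Sham arrays, with log2 ratios of -0.098 ± 0.20 and -0.061 ± 0.20, or -0.054 and -0.11 against Sham male and Sham female when crossed.

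Of the 12 probes well above background on all 4 arrays, 9 had their lowest and highest arrays within the scanner error of the difference. The 3 whose range exceeded it were Notch1 (0.82 log2 units), the dimmer Rbpj probe (0.80) and Hes1 (0.32). Neighboring arrays in the order of levels were separated beyond the error at 4 places, 2 in Notch1 and 2 in the dimmer Rbpj probe. Not all of these gaps separated the exposures. For Notch1 they included the gap between the TiO2-H arrays (0.32 log2 units, scanner error 0.22). For the dimmer Rbpj probe they included the gap between the Sham arrays (0.28, scanner error 0.27).

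A probe was counted as changed in a sex at or above 1.5-fold or at or below 0.67-fold, provided that at least 1 of the arrays compared measured it well above background. In males 13 member probes could be compared, and 1 of them, the dimmer Rbpj probe, reached 1.5-fold, against 4.08% of all probes compared. None was at or below 0.67-fold, against 3.29%. In females 12 member probes could be compared, and 1, Notch1, reached 1.5-fold, against 2.65%, with none at or below 0.67-fold, against 3.31%. The shares of members past a threshold therefore rested on 1 probe per sex and on different genes, and neither can be read as a change of the set. With the TiO2-H arrays crossed, Notch1 was the 1 probe at or above 1.5-fold against Sham male (3.13% of all probes, and 3.62% past the lower threshold), where the dimmer Rbpj probe, at 1.499-fold, was just under the limit, and no member reached it against Sham female (3.51%, and 2.92% past the lower threshold). No member passed the lower threshold in either crossed comparison. Between the Sham arrays, which differ in sex and not in exposure, no member probe passed either threshold (3.17% of all probes past the upper and 3.15% past the lower one). Between the TiO2-H arrays the dimmer Notch2 probe was past the lower threshold, as a bound, against 4.17% of all probes, and none past the upper one, against 2.05%. The median log2 ratio of the member probes was -0.0093 in males and 0.082 in females, beside 0.013 and 0.0039 over all probes compared.

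**Figure D3:**
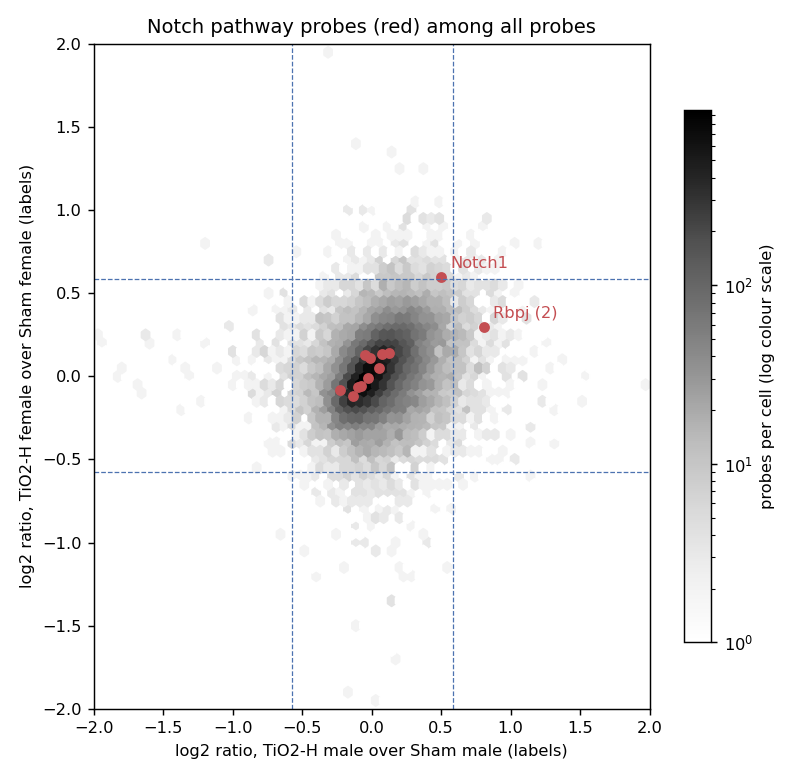
Log2 ratio of TiO2-H over Sham between the arrays labelled male (horizontal axis) and labelled female (vertical axis) for all probes compared in both (grey, cells shaded by number of probes on a log scale) and for the member probes (red). Dashed lines mark 1.5-fold and 0.67-fold, and 251 of 31766 probes beyond 2 log2 units are not drawn. Notch1 passes the upper line for females, the dimmer Rbpj probe passes it for males, and the other members lie in the dense center.

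The only comparison with more than 1 array on a side set both TiO2-H pools against both Sham pools with limma over 35626 probes. No probe passed an adjusted p of 0.05 (0.0% of all probes), and the lowest adjusted p over all probes was 0.311. The adjusted p of the 13 member probes tested lay between 0.351 and 0.985, so that no member differed between the exposures beyond the spread between the arrays after adjustment. Both arrays of an exposure were pools of offspring of the same dams. The SE and intervals below therefore leave out the spread between litters and between animals. At an unadjusted p under 0.05 there were 3 member probes, all higher in TiO2-H, against 8.56% of all probes in that direction, and none lower, against 5.39%. The dimmer Rbpj probe had a log2 difference of 0.55 (SE 0.15, 95% interval 0.10 to 1.00, adjusted p = 0.351 in limma). Notch1 differed by 0.55 (SE 0.16, interval 0.072 to 1.03, adjusted p = 0.351 in limma). Notch3 differed by 0.13 (SE 0.042, interval 0.0045 to 0.26, adjusted p = 0.356 in limma), the smallest of the 3 differences. Notch2 was next among the receptors at its brighter probe, with a log2 difference of 0.11 and an interval of -0.030 to 0.24.

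Intervals for the other members show what these arrays could not resolve. For Dll1 the difference was -0.13 with an interval of -0.28 to 0.028. For Jag1 it was 0.051 with an interval of -0.13 to 0.23. Among the target genes, Hes5 had the narrowest interval, from -0.078 to 0.19 around 0.054, and Hes1 the widest, from -0.48 to 0.17 around -0.16. Both arrays of TiO2-H lay above both arrays of Sham at 5 of the 13 member probes, against 26.3% of all probes, and below at 3, against 26.9%. The median difference of the member probes was 0.040 log2 units beside 0.00061 over all probes, and their median absolute difference was 0.080 beside 0.106. With 2 arrays on each side an exact permutation test cannot give a two-sided p below 0.333, so none was used for single genes.

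**Figure D4:**
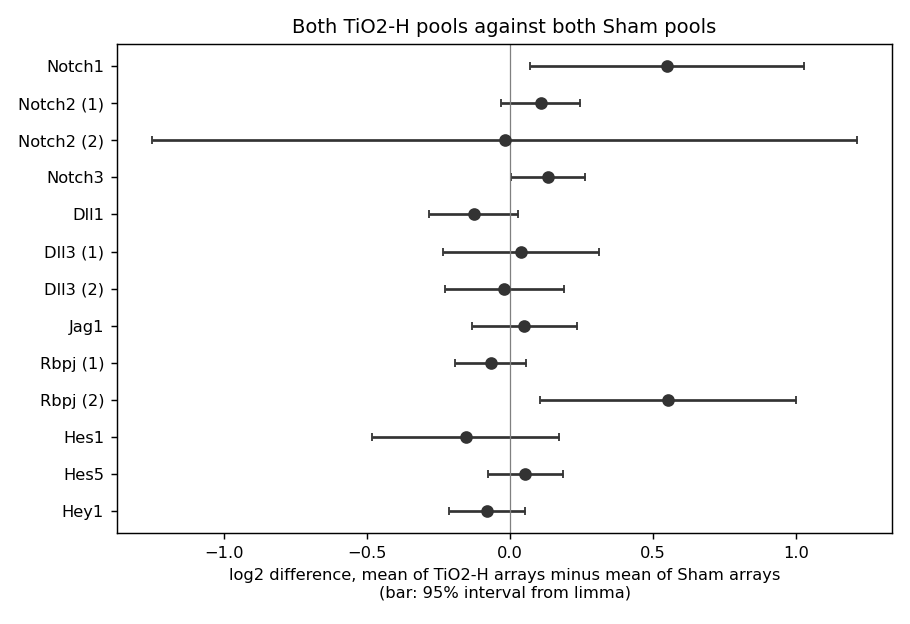
Log2 difference between the mean of the TiO2-H arrays and the mean of the Sham arrays (horizontal axis) for the 13 member probes tested (vertical axis), with the 95% interval from limma before adjustment for the number of probes. The intervals of Notch1, Notch3 and the dimmer Rbpj probe lie above 0 and the others include it.

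Genes with the most similar course over the 4 arrays were sought among 90 genes of the pathway and marker lists, as the smallest Euclidean distance between log2 values centered on their own mean. Notch1 was nearest to Flt1, a receptor of endothelial cells, at a distance of 0.30 log2 units, and 1.76% of the 29409 probes well above background on all arrays were nearer. Flt1 had signals of 645, 674, 851 and 915, in the same order of arrays as Notch1. After scaling this order was not particular to Flt1. It was also that of Hes5, of Sox2 and of the neuron markers Dcx, Map2 and Snap25, among others. Notch2 and Notch3 were both nearest to Cspg4, a proteoglycan of oligodendrocyte precursors and pericytes. Their distances were 0.027 and 0.036, with 0.534% and 1.06% of probes nearer. Hes5 was nearest to Sox2, a transcription factor of neural progenitors, at 0.016 with 0.190% of probes nearer. The Hes5 values spanned only 0.082 log2 units, within the scanner error of 0.20. Hey1 and the brighter Rbpj probe were both nearest to Tubb3, a neuron marker (distances 0.032 and 0.020, with 1.47% and 0.581% of probes nearer). Hey1 was closer to this Rbpj probe itself, at 0.022. Dll3 and Jag1 were nearest to the pathway gene Mib2 (0.046 and 0.049, with 0.245% and 1.63% of probes nearer). Hes1 was nearest to the pathway gene Tle4 (0.038, with 0.0680% nearer). Dll1 was nearest to Dtx2, an E3 ligase of the pathway, at 0.0075 with 0.0102% of probes nearer. As for Hes5, the values of Notch2, Notch3, Dll1, Dll3, Jag1, Hey1 and the brighter Rbpj probe spanned less than their scanner error. The matches of these genes thus concern differences no larger than that error. These distances rest on 4 arrays that share their labelling and scan and are given as descriptions.

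No marker of any cell type passed an adjusted p of 0.05 in limma. All 5 endothelial markers had a positive log2 difference, beside 50.1% of all probes, with 2 at an unadjusted p under 0.05 (Flt1 0.31 and Cldn5 0.17), beside 8.56% of all probes. Their summed signal, in units of the 75th percentile of each array, was 7.74 to 8.01 in Sham and 8.92 to 8.93 in TiO2-H. Cldn5 made up most of this sum, and the groups of Pecam1 and Cdh5 overlapped. The 5 mural markers summed to 2.03 to 2.11 in Sham and 2.12 to 2.19 in TiO2-H, with Myh11 too dim to measure throughout. The groups of Pdgfrb, Kcnj8 and Acta2 overlapped. The 6 radial glia markers summed to 114 to 124 in Sham and 129 to 132 in TiO2-H, 4 of them higher and 2 lower, with a median difference of 0.046 and none at an unadjusted p under 0.05. Most of that sum was Fabp7, and the other 5 summed to 31.2 to 32.5 in Sham and 31.8 to 32.5 in TiO2-H, which overlapped. The 4 oligodendrocyte precursor markers summed to 11.3 to 11.4 in Sham and 12.6 to 12.7 in TiO2-H. The 3 microglia markers summed to 11.4 to 11.6 and 12.6 to 12.7. Each of these sums came mostly from its brightest gene, and the groups of Olig2 overlapped (log2 difference 0.0054). All 4 meningeal fibroblast markers also had positive differences, with sums of 20.8 to 21.1 and 22.2 to 22.7. The 6 neuron markers, 3 higher and 3 lower, summed to 347 to 349 in Sham and 345 to 358 in TiO2-H, with 2 higher at an unadjusted p under 0.05 (Map2 0.16 and Snap25 0.19). Sums were lower on both TiO2-H arrays for the 3 astrocyte markers (22.5 to 24.0 in Sham and 21.8 to 22.1 in TiO2-H). The 4 choroid plexus markers also summed lower (84.7 to 87.0 and 82.2 to 83.4). Aldh1l1 made up most of the astrocyte sum and Ttr most of the choroid plexus sum. Aqp4 and Clic6 of these lists had positive log2 differences (0.054 and 0.015). The groups of Aqp4, Folr1 and Kl overlapped. Of the erythroid markers, Hba-a1 was lower in TiO2-H by a log2 difference of -0.25. The part of these markers in the values of Notch1, Notch2, Notch3 and Rbpj was not tested. In RNA of whole brain, fewer cells of a type and less RNA per cell cannot be told apart.

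The other genes of the pathway, 53 listed and 50 with a probe, differed in both directions, more of them lower than higher. At the brightest probe of each gene, 19 had a positive and 31 a negative log2 difference between both TiO2-H pools and both Sham pools. The median was -0.025, beside 0.00061 over all probes, of which 50.1% had a positive difference. None of the 50 passed an adjusted p of 0.05 in limma, and 4 were higher and 4 lower at an unadjusted p under 0.05, beside 8.56% and 5.39% of all probes. In each sex 1 gene passed the lower threshold, beside 3.29% of all probes in males and 3.31% in females. None passed the upper one, beside 4.08% and 2.65%. With the TiO2-H arrays crossed, 1 gene passed the lower threshold against Sham male (Ncstn), beside 3.62% of all probes. Against Sham female 1 gene passed the upper threshold (Adam17), beside 3.51% of all probes. Among other receptors and ligands, Dll4, the ligand of endothelial tip cells, had signals of 55.9, 60.4, 46.1 and 43.1 on the Sham male, Sham female, labelled TiO2-H male and labelled TiO2-H female arrays. It was lower on both TiO2-H arrays, by log2 ratios of -0.38 ± 0.35 in males and -0.61 ± 0.33 in females, and was the gene at or below 0.67-fold in females by label. When crossed, the ratios were -0.48 against Sham male and -0.52 against Sham female, and neither passed the threshold. Its limma difference was -0.50 (SE 0.078, adjusted p = 0.351). Jag2, another Jagged ligand, differed by -0.17. Dll4 thus lay in the opposite direction to Notch1 and Flt1 on the same arrays.

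Enzymes that modify and cut the receptor differed in both directions. Lfng, a Fringe glycosyltransferase that tunes which ligand a receptor answers, and Poglut1, which adds glucose to its extracellular repeats, had log2 differences of -0.26 and -0.16 in limma. Adam17, a protease that sheds the extracellular part of receptors, had signals of 48.4, 44.7, 76.6 and 59.1. Its log2 ratios were 0.57 ± 0.33 in males, just under the 1.5-fold limit, and 0.27 ± 0.35 in females. When crossed, they were 0.18 against Sham male and 0.65 against Sham female, the latter past the limit. Ncstn, which encodes a subunit of gamma-secretase, had signals of 232, 76.8, 67.5 and 72.9. The Sham male array stood alone, so that Ncstn was at or below 0.67-fold in males (log2 ratio -1.88), with a log2 ratio of -0.21 in females, and the crossed ratios were -1.77 and -0.31 against Sham male and Sham female. Its limma difference was -1.04 with an SE of 0.62, and -0.26 without the Sham male array.

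Regulators and nuclear partners of Notch also differed in both directions. Numb, an inhibitor of Notch that is passed unequally to daughter cells, differed by 0.21 and Dtx2 by -0.13. The coactivators Maml2 and Maml3, which join RBPJ and the Notch intracellular domain on DNA, differed by 0.27 (SE 0.047) and 0.19 (SE 0.052), with both TiO2-H arrays above both Sham arrays. Their adjusted p in limma was 0.351 for each. Among other target genes, Nrarp, which feeds back on Notch, differed by 0.11, and Hey2 by -0.24, with Hey2 well above background on only 2 arrays. Of the proneural factors that Hes proteins repress, Neurog2 differed by -0.23. The groups of Nrarp, Hey2 and Neurog2 overlapped.

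**Figure D5:**
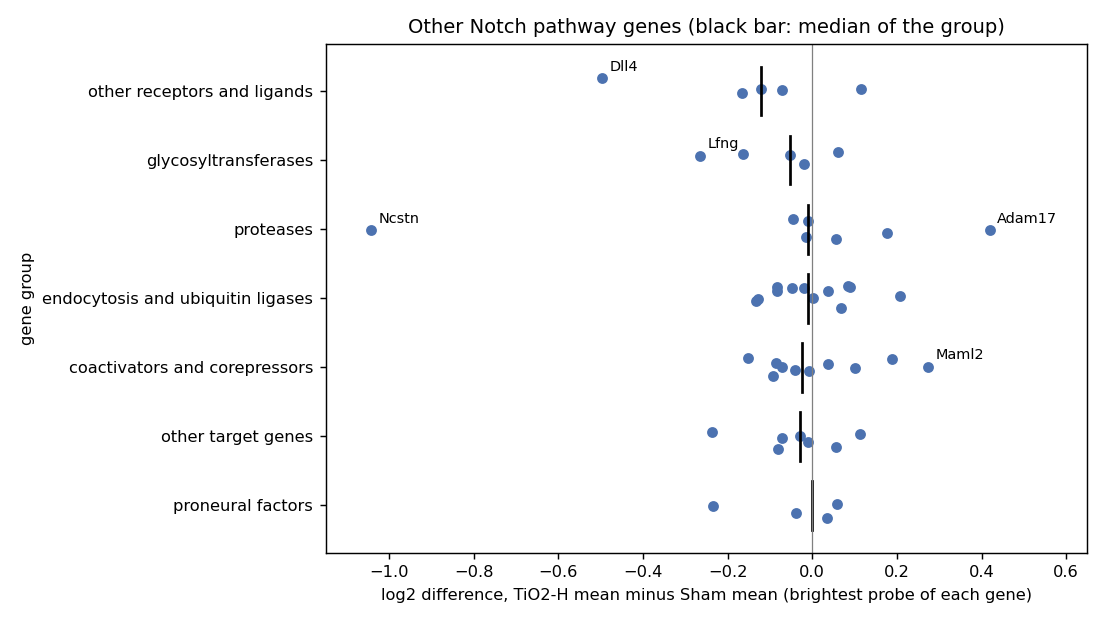
Log2 difference between both TiO2-H pools and both Sham pools (horizontal axis) at the brightest probe of each other pathway gene, by gene group (vertical axis), with the median of each group as a black bar. Genes beyond 0.25 log2 units are named. Ncstn at -1.04 rests on the Sham male array, and the group medians lie between -0.12 and -0.00087.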

How the data were processed

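Total RNA of 4 pools of newborn mouse brain was labeled with Cy3 and hybridized to 1 one-color Agilent array each. Of every array the authors deposited the scanner file, in which the processed signal is an intensity after local background subtraction by Agilent Feature Extraction (version 10.10.1.1 in the file headers), with no scaling between arrays. The deposited value table held the same intensity. The header names mm9, so no gene positions on the array's annotation are given.

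Outlier spots were left out, spots of a probe were averaged on the log2 scale, and the log2 of the 75th percentile of non-control spots was subtracted. A probe was compared where at least 1 array of the comparison was well above background. A dim value was raised to the lowest measured signal of its array (23.3 to 31.7) where it was smaller, which makes the fold a bound. Probes were named through RefSeq accessions (GRCm38.p6 table, 94.3% of 22765 named). Exposures were compared by limma 3.58.1 (R 4.3.3), adjusted over all probes by Benjamini-Hochberg. Steps were tested on simulated data. Python 3.11.15, numpy 2.4.6, pandas 2.3.3 and matplotlib 3.10.9 were used. The number of arrays limits the precision. Over probes with 10 spots, the median SD between spots was 0.064 to 0.067 log2 units.

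The named genes were all 10 members with every probe, and of the other pathway genes those past a fold threshold in a sex and the 2 of each list with the largest limma difference. The members, lists and tests were chosen with earlier results of these data known. Of the genes this rule names, 1 is not reported here, nor is 1 marker. Methylation arrays of the study were not analysed here. Alternatives were other scaling, background correction, filter, floor, probe choice, threshold, sex as a term, crossed TiO2-H arrays and each array left out.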

Additional observations from a re-analysis of the deposited data

Results flagged for a closer look

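For the brighter Dll3 probe the log2 ratio of TiO2-H over Sham was -0.048 between the arrays labelled male and 0.13 between those labelled female, opposite in direction. Jag1 likewise had log2 ratios of -0.0093 and 0.11. With the TiO2-H arrays crossed, the directions turned, to 0.15 against Sham male and -0.074 against Sham female for Dll3 and to 0.10 and -0.0028 for Jag1. Each group was 1 array, so the difference between the labelled sexes was not tested, and each ratio was smaller than the scanner error.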

How the results depend on the processing

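No paired analysis was possible because the labels carry no replicate numbers that pair arrays, apart from pairing by sex, which was fitted as a block and is given below. No member passed an adjusted p of 0.05 under any of the 16 alternatives in limma, where the lowest adjusted p of a member lay between 0.160 and 0.536. Notch1 (0.35 to 0.71), the dimmer Rbpj probe (0.41 to 0.69), Notch3 (0.11 to 0.25), Notch2 at its brighter probe and Hes5 were above 0 and Dll1 and Hes1 below 0 in every limma alternative. The count of member probes at or above 1.5-fold in males, 1 as reported, was 3 without scaling and 2 without a floor. It was 0 with normexp on median signals, with the brightest probe of each accession or at 2-fold. Over all probes the count in males was 1359 as reported, 1900 without scaling and 527 with normexp. In females the count of member probes was 0 with normexp, at 2-fold or with the TiO2-H arrays crossed. Over all probes the count in females was 903 as reported and 368 with normexp. The count at an unadjusted p under 0.05, 3 as reported, was 5 without scaling, 1 with sex as labelled as a block (Notch1) and 1 with sex crossed (the dimmer Rbpj probe), and 0 to 2 with 1 array left out: 0 without Sham male and 1 without Sham female. Without scaling the median of all probes shifted by 0.115, with 78.5% higher instead of 50.1%, and the median of the members was 0.15. The larger member counts without scaling therefore cannot be read as a change of the members. Directions turned without scaling for the dimmer Notch2 (0.095) and Dll3 (0.095) probes, the brighter Rbpj probe (0.047) and Hey1 (0.035). The dimmer Notch2 probe also turned with normexp (0.16) and without a floor (0.92). With 1 array left out its difference ranged from -0.53 to 0.49, that of the dimmer Dll3 probe from -0.075 to 0.035, that of the brighter Dll3 probe from -0.061 to 0.14 and that of Jag1 from -0.0060 to 0.11, each changing sign. The cause was not tested.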
